A study of Mus musculus with 6 samples.

Results

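Choroid plexus epithelial genes were described in RNA sequencing of mouse hippocampus, as the 10 genes of the deposited table named Ttr, Enpp2, Kl, Folr1, Slc4a5, Aqp1, Kcnj13, Kcne2, Otx2 and Clic6. All 10 were found among the 33385 genes of the table, and all 10 were among the 20946 tested. Every mouse carried a floxed Bcas2 gene, in which Cre recombinase can excise the part between its recognition sites. The 3 knockdown libraries came from mice injected with AAV2/9-Syn-cre, an adeno-associated virus with Cre under the synapsin promoter, which is active in neurons. The 3 control libraries came from floxed mice injected with a vehicle AAV. The labels give neither age nor sex, and do not say whether a library holds 1 animal or a pool, so the tests measure the spread between these libraries. The synapsin promoter is not one of plexus epithelium, and Cre activity in the plexus was not tested.

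The choroid plexus is a folded epithelium that hangs into the brain ventricles and secretes cerebrospinal fluid. Its cells form a tight barrier over leaky, fenestrated vessels, export carrier proteins and enzymes into the fluid, and move sodium, chloride, bicarbonate and water from blood to ventricle. The plexus of the lateral ventricle lies against the hippocampus, so a hippocampal sample can hold some of it. Several of these genes are also read in other cells: Enpp2 in oligodendrocytes, Kl in neurons, and Ttr, Kcnj13 and Otx2 in the pigment epithelium of the retina. In bulk tissue, more cells of a type and more RNA per cell cannot be told apart.

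The libraries held 55914768 to 76481458 counts and 26028 to 26973 genes above 0. Control replicate 3 stood apart from the other 5 libraries for every gene described here, so the fold changes of the 10 genes are given with and without it. Y-linked genes were counted in control replicates 2 and 3 (10430 and 10594 counts) and at 0 in the other 4 libraries. All knockdown libraries were among those at 0, so sex, as far as these counts show it, is partly confounded with group. Control replicate 2 did not share the high plexus levels, and a link between these levels and sex was not tested. Genes of hippocampal principal neurons summed to 276 to 347 FPKM in the knockdown libraries and 281 to 314 FPKM in the controls.

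Promoter sequence was available in RefSeq (GRCm38.p6) for 6 of the 10 genes, and windows of 3 of these are shown. Slc4a5 had the highest ratio in control replicate 3 of the 6, Kcne2 lay closest to the mean profile of the group, and Otx2 encodes the homeodomain factor itself. Each window runs from 250 bases before to 50 bases after an annotated start, 5′ to 3′ on the gene's strand. Further windows of Kcne2 and Otx2 are not shown, nor is that of Kl, which had the lowest ratio of the 6. Capitals mark the OTX core TAATCC, which was searched on both strands and reads GGATTA on the other.
Slc4a5, chr6:83237125-83237424, plus strand: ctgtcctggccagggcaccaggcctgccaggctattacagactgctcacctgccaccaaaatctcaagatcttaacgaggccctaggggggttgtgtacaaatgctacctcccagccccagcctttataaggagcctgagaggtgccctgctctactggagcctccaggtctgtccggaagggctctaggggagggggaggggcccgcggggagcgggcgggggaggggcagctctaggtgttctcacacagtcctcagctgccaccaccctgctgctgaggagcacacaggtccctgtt
Kcne2, chr16:92292139-92292438, plus strand: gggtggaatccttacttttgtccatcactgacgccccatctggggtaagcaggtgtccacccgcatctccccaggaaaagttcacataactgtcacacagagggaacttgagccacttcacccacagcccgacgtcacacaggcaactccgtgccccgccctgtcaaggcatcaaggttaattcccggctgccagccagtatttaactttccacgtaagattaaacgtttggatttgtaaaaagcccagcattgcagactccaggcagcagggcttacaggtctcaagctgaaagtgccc
Otx2, chr14:48665060-48665359, minus strand: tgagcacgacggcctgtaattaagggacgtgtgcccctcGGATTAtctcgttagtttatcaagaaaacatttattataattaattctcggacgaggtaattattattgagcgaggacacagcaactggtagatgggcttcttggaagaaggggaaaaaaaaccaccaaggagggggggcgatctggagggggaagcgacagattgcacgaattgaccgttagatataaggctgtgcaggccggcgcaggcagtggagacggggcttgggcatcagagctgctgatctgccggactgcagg
The core was present in 1 of the 10 promoter windows of these 6 genes, at position 40 of this Otx2 window on the reverse strand, counted from its first base. It was present in 7.06% of 32851 mouse promoter windows of the same length. The homeodomain core TAATTA, its own reverse complement, was present in 2 member windows, both of Otx2, and in 5.29% of all windows. The forkhead core GTAAACA, searched on both strands, was in 0 of the 10 windows and in 3.65% of all windows. These letters are a description of the windows and were not tied to binding.

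Among the secreted proteins, Ttr had the highest level in control replicate 3, and Enpp2 in each of the other 5 libraries. Ttr encodes transthyretin, which carries thyroxine and retinol-binding protein in the cerebrospinal fluid. Ttr (ENSMUSG00000061808, chromosome 18, 20798337 to 20807378, plus strand of GRCm39) was at 0.349, 12.3 and 5.15 FPKM in knockdown replicates 1 to 3, and at 11.2, 12.9 and 4184 FPKM in control replicates 1 to 3. FPKM scales fragment counts by transcript length and library size, so levels can be compared between genes. Control replicate 3 was far above all others, and knockdown replicate 1 was far below, with 29 counts against 367 to 1091 in the next 4 libraries. Apart from control replicate 3, knockdown replicate 2 lay within the range of the controls, so the groups overlapped. By FPKM, Ttr ranked 7 among all genes in control replicate 3 and between 3565 and 17173 in the others.

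Enpp2 encodes autotaxin, the secreted enzyme that makes lysophosphatidic acid. Enpp2 (ENSMUSG00000022425, chromosome 15, 54702297 to 54783521, minus strand) was at 21.7, 16.2 and 18.7 FPKM in the knockdown libraries and at 37.7, 24.6 and 575 FPKM in the controls. All 3 controls lay above all 3 knockdown libraries, and leaving out control replicate 3 cannot undo such a separation. Among the 5 other libraries Enpp2 was the most abundant of the 10 genes, and it spread by no more than 2.33-fold between its lowest and highest library.

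Kl encodes klotho, a membrane protein that can be shed and serves with FGF receptors as the receptor of FGF23. Kl (ENSMUSG00000058488, chromosome 5, 150876072 to 150917282, plus strand) was at 1.43, 1.73 and 1.47 FPKM after Cre and at 1.82, 1.12 and 30.0 FPKM in the controls. The other 5 libraries were within 1.62-fold of each other, the narrowest spread of the 9 genes with a count in every library, and both groups shared that range.

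Folr1 encodes the folate receptor that moves folate from blood into the cerebrospinal fluid. Folr1 (ENSMUSG00000001827, chromosome 7, 101507538 to 101519995, minus strand) was at 0.0929, 0.407 and 0.400 FPKM after Cre and at 0.290, 0.212 and 22.7 FPKM in the controls. A pair of knockdown libraries lay above control replicates 1 and 2, so the order of the groups depended on control replicate 3. Anapc15 overlaps Folr1 on the opposite strand and held 2.43 FPKM in control replicate 3, against 2.81 to 3.32 FPKM elsewhere.

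The transporters and channels were low outside control replicate 3. Slc4a5 encodes a sodium bicarbonate cotransporter of the apical membrane. Slc4a5 (ENSMUSG00000068323, chromosome 6, 83196810 to 83281927, plus strand) was at 0, 0.0510 and 0 FPKM after Cre and at 0.148, 0.0799 and 9.51 FPKM in the controls. The groups did not overlap, and leaving out control replicate 3 cannot change that. For the libraries at 0, an upper limit of 3 counts corresponds to 0.00753 FPKM in knockdown replicate 1 and 0.00860 FPKM in knockdown replicate 3, for counting error alone. The deposited counts pile up at multiples of 4, so a limit in read pairs may be higher than these values. The values behind the separation are small, with 20 counts in knockdown replicate 2 and 71 and 30 counts in control replicates 1 and 2.

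Aqp1 encodes the water channel of the apical membrane. Aqp1 (ENSMUSG00000004655, chromosome 6, 55313417 to 55325540, plus strand) was at 0.124, 0.116 and 0.165 FPKM after Cre and at 0.157, 0.379 and 11.97 FPKM in the controls. Control replicate 2 was the highest of the other 5 libraries, and knockdown replicate 3 lay above control replicate 1.

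Kcnj13 encodes the inward rectifier Kir7.1, which passes potassium at the apical membrane. Kcnj13 (ENSMUSG00000079436, chromosome 1, 87314085 to 87322451, minus strand) was at 0.730, 1.32 and 0.0531 FPKM after Cre and at 0.288, 1.02 and 35.6 FPKM in the controls. The other 5 libraries spread by 24.9-fold, with 5 counts in knockdown replicate 3 and 110 in knockdown replicate 2, and the groups shared that range. Kcnj13 lies within Gigyf2 on the opposite strand, which was at 5.37 FPKM in control replicate 3 and 4.74 to 6.11 FPKM elsewhere. The sources used here do not state the strand setting of the counting, so reads of such pairs may not have been told apart.

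Kcne2 encodes a small subunit that assembles with KCNQ1 potassium channels. Kcne2 (ENSMUSG00000039672, chromosome 16, 92089277 to 92095017, plus strand) was at 0.110, 0.190 and 0.229 FPKM after Cre and at 0.188, 0.131 and 15.2 FPKM in the controls. The other 5 libraries held 14 to 28 counts each, within 2.08-fold by FPKM, and the groups overlapped. Clic6 encodes a member of the chloride intracellular channel family. Clic6 (ENSMUSG00000022949, chromosome 16, 92282624 to 92338131, plus strand) was at 1.06, 0.537 and 1.06 FPKM after Cre and at 1.10, 0.211 and 25.5 FPKM in the controls. Control replicate 2 was the lowest library for Clic6, below all 3 knockdown libraries.

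Kcne2 and Clic6 lie on the same strand, 187607 bases apart, and the genes between them were not high with them in control replicate 3. Rcan1, a calcineurin regulator, was at 13.2 FPKM in control replicate 3 and at 11.8 to 14.8 FPKM elsewhere. Smim11 had 3.11 FPKM there, within the 2.86 to 3.91 FPKM of the others. Kcne1, the related potassium channel subunit, was at 0 FPKM in control replicate 3 and at 0 to 0.0412 FPKM elsewhere. Smim34, also between them, was at 0.0833 FPKM in control replicate 3 and at 0 FPKM elsewhere.

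Otx2 encodes the homeodomain transcription factor needed to form the plexus. Otx2 (ENSMUSG00000021848, chromosome 14, 48895134 to 48911276, minus strand) was at 0.209, 0.228 and 0.338 FPKM after Cre and at 0.486, 0.167 and 5.94 FPKM in the controls. It had the lowest level of the 10 genes in control replicate 3, and the groups overlapped through control replicate 2. Its opposite-strand neighbour Otx2os1, which overlaps it, had 0.277 FPKM in control replicate 3, against 0 to 0.0595 FPKM elsewhere.

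**Figure D1:**
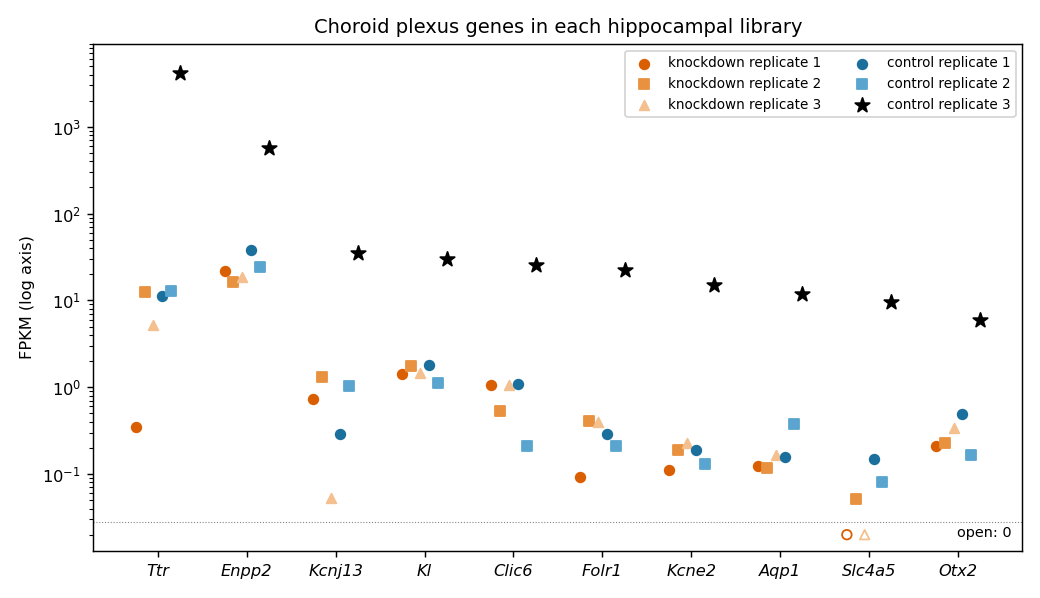
FPKM of the 10 choroid plexus genes (x axis) in each of the 6 libraries on a log axis, with 1 point per library and open symbols for a value of 0. Control replicate 3 (star) lies above the other 5 libraries for every gene, from 5.94 FPKM for Otx2 to 4184 FPKM for Ttr, and the other 5 change order from gene to gene.

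The 10 genes together took 0.960% of all counts in control replicate 3 and 0.0142% to 0.0276% in each of the other 5 libraries. In control replicate 3, Ttr alone made up 85.1% of their summed FPKM. In the others it made up 1.35% to 37.3%, and Enpp2 was the leading gene. The 8 genes without Ttr and Enpp2 summed to 156 FPKM in control replicate 3 and to 3.33 to 4.58 FPKM in the others, where knockdown replicate 2 was the highest and control replicate 2 the lowest. Of the other 5 libraries, control replicate 1 was the highest for 5 genes, knockdown replicate 2 and control replicate 2 for 2 each, and knockdown replicate 3 for 1.

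The group comparison asked whether these transcripts differ after Cre. The edgeR quasi-likelihood test called 0 of the 10 genes at an adjusted p under 0.05, and over all tested genes it called 0.0% of 20946, with 1296 at an unadjusted p under 0.05. DESeq2 called 74 genes and 0 of the 10, of which 9 received no adjusted p. All 10 adjusted p-values were 0.792 with edgeR. All 10 log2 fold changes were negative, with a median of -4.32 against -0.0005 over all tested genes, and 8 had an unadjusted p under 0.05 in edgeR, against 3.16% of all genes lower with such a p. That count was 1, 2 and 1 without knockdown replicates 1, 2 and 3. It was 10, 10 and 1 without control replicates 1, 2 and 3. The groups did not overlap for 2 of the 10 (Enpp2 and Slc4a5), against 7.5% of all genes lower without overlap. The count without overlap was 4 without control replicate 1 and 5 without control replicate 2. Leaving out a library can raise this count but cannot lower it. No share over all genes was computed with a knockdown library or control replicate 1 or 2 left out. Counts from those sets cannot be set beside 3.16% or 7.5%. For Enpp2 and Slc4a5 the exact two-sided permutation test over the 20 assignments of libraries gave p = 0.10, the smallest value the design allows.

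The fold changes themselves were wide and followed control replicate 3. Ttr had a log2 fold change of -7.85 (SE 2.65), Slc4a5 of -7.45 (SE 2.29) and Aqp1 of -4.87 (SE 1.60). At the other end, Kl had -2.80 (SE 1.16), Otx2 -3.01 (SE 1.19) and Clic6 -3.29 (SE 1.48). The 95% intervals of Kcnj13 (-8.17 to 0.04) and Clic6 (-6.76 to 0.17) held 0.

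Without control replicate 3, the 10 genes split evenly, 5 lower and 5 higher after Cre, and their median log2 fold change was -0.11 against 0.0056 over the 21693 genes then tested. The genes that changed sign were Kl, Folr1, Kcnj13, Kcne2 and Clic6, whose values ran from 0.08 to 0.45. Ttr moved to -0.99 (SE 1.05), with a 95% interval of -3.52 to 1.53. Slc4a5 moved to -2.65 (SE 1.54), with an interval of -6.35 to 1.05. Enpp2 alone had an unadjusted p under 0.05, against 4.26% of all genes in that fit. Its log2 fold change was -0.70 (SE 0.198), with an adjusted p of 0.986 in edgeR. That 2 of 2 remaining controls lay above 3 of 3 knockdown libraries follows from the separation with control replicate 3 included.

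**Figure D2:**
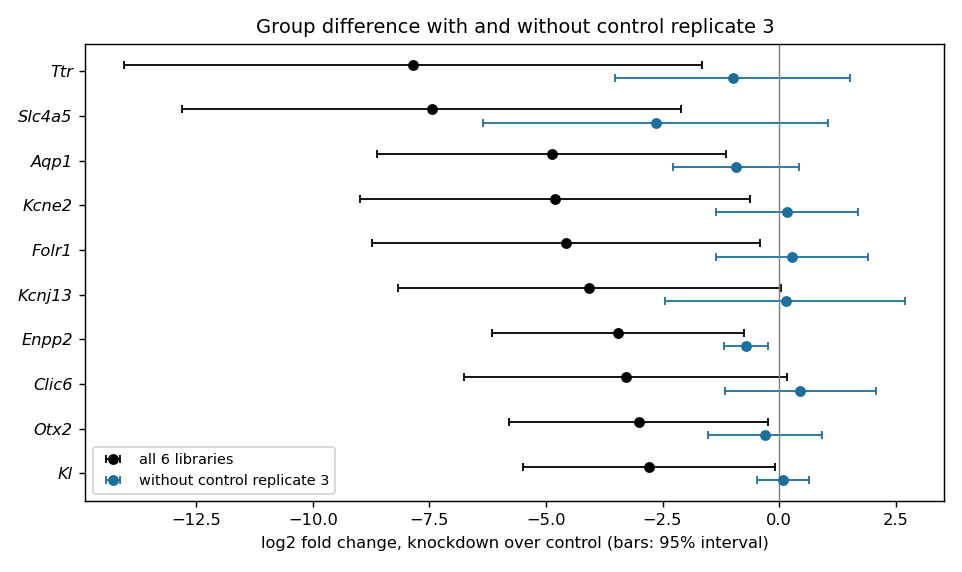
Log2 fold change of the 10 genes, knockdown over control, from edgeR with all 6 libraries (black) and without control replicate 3 (blue), with 95% intervals. The black values lie between -7.85 and -2.80, and the blue values lie between -2.65 and 0.45, with the interval of Enpp2 alone clear of 0.

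The level of each gene in control replicate 3 was set against its level in the other 5 libraries. Those libraries may hold some plexus too, so this does not measure how specific a gene is to the plexus. The ratio of control replicate 3 to the median of the other 5 libraries was 374 for Ttr, 187 for Slc4a5, 80.5 for Kcne2, 78.2 for Folr1, 76.2 for Aqp1 and 48.8 for Kcnj13. It was 26.5 for Enpp2, 26.1 for Otx2, 24.0 for Clic6 and 20.4 for Kl. Each pair of neighbours in this order differed by less than the spread of at least 1 of the pair over the other 5 libraries. Their median ratio was 62.5. Against the highest instead of the median of the other 5, the ratios ran from 12.2 (Otx2) to 323 (Ttr). These ratios are a description, since control replicate 3 was singled out by these levels.

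Among the 13964 genes at 1 FPKM or more in control replicate 3 and with a median above 0 elsewhere, Ttr had the highest ratio, Slc4a5 ranked 5 and the 10 genes all ranked within the first 30. Over all genes at 1 FPKM or more in a library, control replicate 3 had 69 at least 10 times the median of the other libraries. The other 5 libraries had 12 to 26 by the same count. These counts include genes with a median of 0 elsewhere, of which control replicate 3 had 18. As a share of the genes at 1 FPKM or more, this was 0.494% in control replicate 3 and 0.0880% to 0.190% in the others.

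**Figure D3:**
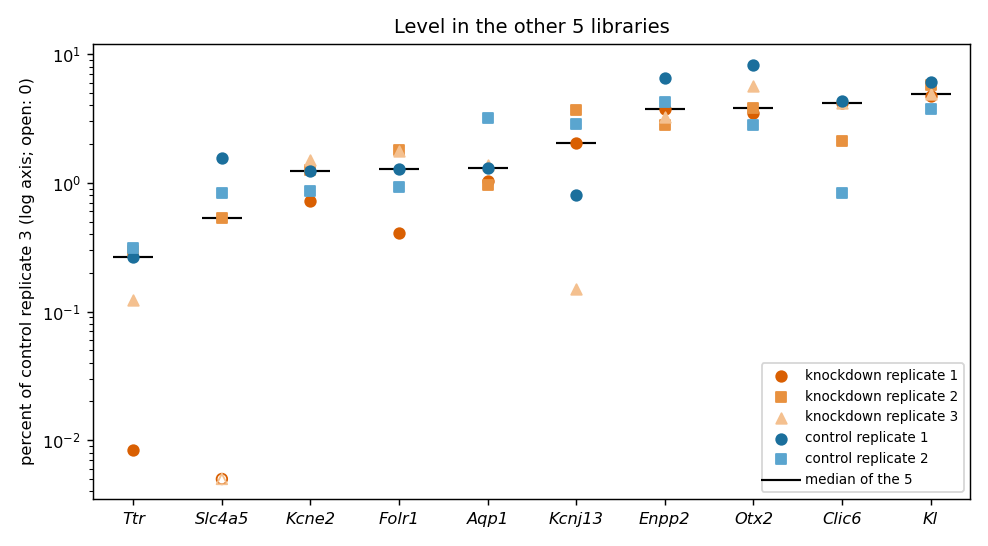
Level of each gene in the other 5 libraries as a percent of its level in control replicate 3, on a log axis, with 1 point per library, a bar at the median and open symbols for 0. The medians rise from 0.268% for Ttr and 0.536% for Slc4a5 to 4.16% for Clic6 and 4.90% for Kl.

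The ratio of each gene to Ttr in control replicate 3 was carried to the other 5 libraries, and the measured level was set against the level computed in this way. For 8 of the 9 other genes the median of measured over computed level was above 2. Otx2 was at 30.6 times, Enpp2 at 24.5 times, Kl at 22.7 times and Clic6 at 16.1 times the level computed from Ttr. Kcnj13 was at 9.30, Folr1 at 6.09 and Kcne2 at 4.64 times, with Aqp1 at 10.2 and Slc4a5 at 1.82 times. The values of knockdown replicate 1 were the most extreme, since Ttr was lowest there.

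With Folr1 in place of Ttr, 5 genes stayed above a 2-fold median. These were Enpp2 (4.56), Kl (4.002), Otx2 (3.23), Clic6 (2.37) and Kcnj13 (2.07). Aqp1 (1.03) and Kcne2 (0.924) had medians near the ratio to Folr1 of control replicate 3, with ranges of 0.540 to 3.38 and 0.696 to 1.77 over the 5 libraries. Slc4a5 was at 0.299 of it, and Ttr was at 0.164 of it. Enpp2, Kl and Otx2 lay above the level computed from Folr1 in all 5 libraries, at 1.57 to 9.20, 2.78 to 11.6 and 2.14 to 8.59 times. Clic6 (0.883 to 10.2 times) and Kcnj13 (0.0846 to 5.00 times) lay on both sides of it. With Kcnj13 as the reference, Kl (2.33) and Clic6 (2.03) stayed above a 2-fold median, and Enpp2 (1.84) and Otx2 (1.72) did not. Kl alone then lay above the computed level in all 5 libraries.

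For Enpp2, the level outside control replicate 3 was set beside oligodendrocyte and myelin genes, since oligodendrocytes also make autotaxin. Relative to its median over the 5 libraries, Enpp2 was at 1.00, 0.746 and 0.864 in the knockdown libraries and at 1.74 and 1.13 in control replicates 1 and 2. The median of 15 myelin genes was 1.00, 0.826 and 0.918 after Cre and 1.79 and 1.27 in those controls. Of these genes, 14 of 15 were highest in control replicate 1, as Enpp2 was, and 13 of 15 had both controls above all knockdown libraries. No share over all genes was computed for either count, so neither can be read as particular to myelin genes. The 15 genes summed to 727 to 743 FPKM after Cre and to 1387, 1003 and 882 FPKM in control replicates 1 to 3, with none of them at 0. Control replicate 3, the highest for Enpp2, was the lowest control for this sum. The part of oligodendrocyte RNA in the Enpp2 difference was not tested.

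The myelin list was lower as a whole in value, with 15 of 15 negative log2 fold changes and a median of -0.59, and 0 were called by edgeR after adjustment. Of the 15, 11 had an unadjusted p under 0.05 and 11 had groups that did not overlap, against the 3.16% and 7.5% of all tested genes above. Cldn11, which seals the myelin sheath, was at 38.3, 47.9 and 39.95 FPKM after Cre and at 78.3, 65.0 and 55.0 FPKM in the controls, a log2 fold change of -0.63 (SE 0.147). Without control replicate 3 the median of the list was -0.72, so it was not smaller there, as it was for the plexus genes.

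**Figure D4:**
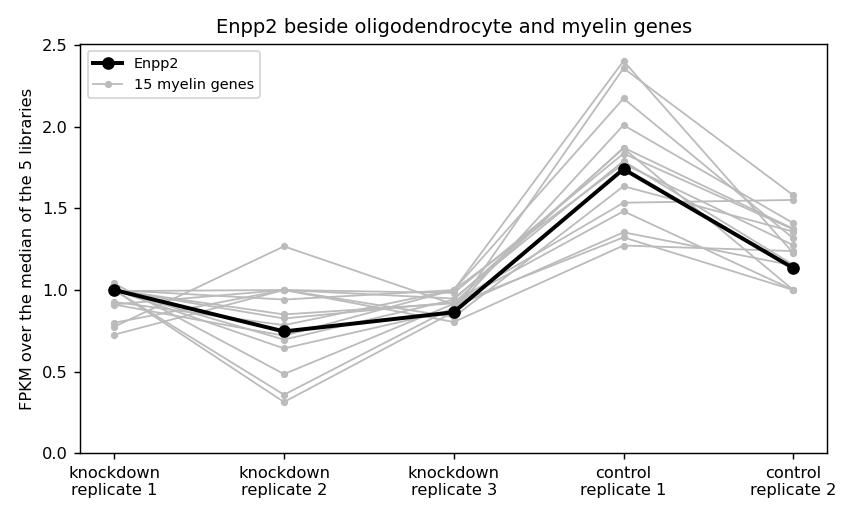
FPKM of Enpp2 (black) and of 15 oligodendrocyte and myelin genes (grey) in the 5 libraries other than control replicate 3, each divided by its own median over these 5. Enpp2 reaches 1.74 in control replicate 1 and 1.13 in control replicate 2, with the knockdown libraries at 0.746 to 1.00, and most grey lines take the same shape.

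The list for Enpp2 held genes of lysophosphatidic acid metabolism, its receptors and other members of the Enpp family. Of its 15 tested genes, 12 were lower and 3 higher, 0 were called, and the median ratio in control replicate 3 was 1.28. Of the 15, 4 were lower with an unadjusted p under 0.05 (Lpar1, Enpp1, Enpp6 and Plpp2) and 5 were lower without overlap, against 3.16% and 7.5% of all tested genes. With control replicate 3 left out, 11 were lower and 4 higher. Lpar1, a receptor found on oligodendrocytes, was at 5.40, 2.94 and 4.66 FPKM after Cre and at 8.71, 6.88 and 6.42 FPKM in the controls (log2 fold change -0.74, SE 0.227, and -0.83 without control replicate 3). Enpp6, a choline phosphodiesterase of newly formed oligodendrocytes, was at 1.10, 0.757 and 0.883 FPKM after Cre and at 2.75, 1.53 and 1.67 FPKM in the controls (log2 fold change -1.10, SE 0.262, and -1.21 without control replicate 3). Neither gene overlapped between the groups, and for both control replicate 1, not control replicate 3, was the highest library.

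The lists around Ttr, Folr1 and Kl had median ratios near 1 among genes with a median of at least 0.1 FPKM or with 1 FPKM or more in control replicate 3. Of 10 tested genes of thyroid hormone and retinol transport, 3 were lower and 7 higher after Cre, 0 were called, and their median ratio was 0.976. Leaving out control replicate 3, 1 was lower and 9 higher. Of 14 folate genes, 8 were lower and 6 higher, 0 were called, and the median ratio was 1.23 over 13 of them, with 6 lower and 8 higher without control replicate 3. The gene below the level filter was Folr2, another folate receptor, at 0.539 FPKM in control replicate 3 and at most 0.152 FPKM elsewhere. The folate carriers Slc46a1 and Slc19a1 were at 5.25 and 5.09 FPKM in control replicate 3, with ratios of 1.27 and 1.42. Of 9 klotho and FGF genes, 8 were lower and 1 higher, 0 were called, and the median ratio was 1.11 over the 7 that passed the level filter, with 6 lower and 3 higher without control replicate 3. Klb, the klotho relative beta-klotho, fell below the filter, at 0.253 FPKM in control replicate 3 and at most 0.172 FPKM elsewhere. The higher gene was Fgfr3, at 18.0 to 19.2 FPKM after Cre and 14.1 to 15.8 FPKM in the controls (log2 fold change 0.36, SE 0.0697, and 0.32 without control replicate 3).

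The relatives of the channel and transporter genes were likewise near a ratio of 1. The median ratio was 1.03 over the other aquaporins, 1.02 over the Slc4 family, 1.15 over Kcne and Kcnq subunits, 0.951 over inward rectifiers and 1.37 over the Clic family, and 0 genes of these lists were called. Aqp4, the water channel of astrocytes, was at 18.2, 8.35 and 13.2 FPKM after Cre and at 26.6, 20.01 and 23.6 FPKM in the controls (log2 fold change -0.80, SE 0.256, and -0.80 without control replicate 3). The exception among the Slc4 genes was Slc4a2, the basolateral anion exchanger of the plexus, with 13.9 FPKM in control replicate 3 and 3.16 to 3.87 FPKM elsewhere. Kcnq1, the channel that Kcne2 joins, was at 0.209 FPKM in control replicate 3 and at 0.0709 to 0.230 FPKM elsewhere, within the spread of the others.

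Over 13031 genes, profile likeness was measured as the root mean square difference of centred log2(FPKM + 0.1) from the mean profile of the 10 genes across the 6 libraries. Among the 10, Kcne2 (0.25), Slc4a5 (0.29) and Folr1 (0.37) lay closest to that mean, and Kcnj13 (1.09) and Ttr (2.06) lay farthest. Of genes outside the group, the nearest was F5, coagulation factor V, at 0.15. F5 was at 0.111, 0.157 and 0.133 FPKM after Cre and at 0.207, 0.200 and 14.8 FPKM in the controls. Next came Mfrp (0.28), Sostdc1 (0.33), Cldn2 (0.37), Tmem72 (0.38) and Prr32 (0.44). Mfrp reached 21.3 FPKM in control replicate 3 from at most 0.366 FPKM elsewhere. C1qtnf5, which overlaps Mfrp on the same strand, had 1.15 FPKM there, below the 4.25 to 5.84 FPKM of the others, so the division of reads between these genes is uncertain. Cldn2, a claudin of leaky epithelia, was at 13.6 FPKM in control replicate 3 and at 0.0167 to 0.275 FPKM elsewhere.

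The remaining near genes were Steap1, Ecrg4, Wfdc2, Wdr86, Krt18, Trpv4, Cdh3, Col8a1 and Abca4, at distances of 0.52 to 0.78. Ecrg4, which encodes a secreted peptide precursor of the plexus, was the highest of the 15, at 48.2 FPKM in control replicate 3 and 0.465 to 1.85 FPKM elsewhere. Without control replicate 3 it had a log2 fold change of -1.23, and both controls lay above all 3 knockdown libraries. Trpv4, a calcium channel of the apical membrane, was at 7.35 FPKM in control replicate 3 and its value without that library was 0.96, of the opposite sign.

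A further 5 lists of plexus epithelial genes held 58 genes with a median of at least 0.1 FPKM or with 1 FPKM or more in control replicate 3, and their ratios reached lower than those of the 10. Of the 58, 11 had a ratio of 10 or more, 27 of 2 to 10, 18 under 2 and 2 a median of 0 in the other libraries. Among secreted proteins and enzymes the median ratio was 7.75. Igfbp2, an IGF-binding protein, was at 142 FPKM in control replicate 3 and 13.6 to 21.5 FPKM elsewhere, whereas Apoe and Clu, which astrocytes also make in quantity, had ratios of 1.25 and 1.38. Barrier proteins and keratins had a median ratio of 5.22, and 11 of 11 had negative log2 fold changes with 0 called, as over all tested genes. Of the 11, 4 had an unadjusted p under 0.05 in edgeR and 0 were lower without overlap, against 3.16% and 7.5% of all tested genes. Without control replicate 3 this list split into 6 lower and 5 higher, and its median log2 fold change went from -1.39 to -0.26. Krt8, an epithelial keratin, was at 3.33 FPKM in control replicate 3 and at 0 in 3 of the other 5 libraries.

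Transporters and channels of the plexus had a median ratio of 2.98, receptors 2.17 and transcription factors 1.61. Among the transporters, Atp1b1, a sodium pump subunit that neurons share, was at 440 FPKM in control replicate 3 and 459 to 539 FPKM elsewhere. Slc12a2, the sodium, potassium and chloride cotransporter NKCC1, had 11.8 FPKM there, against 4.97 to 8.34 FPKM elsewhere. Prlr, the prolactin receptor, had the highest ratio among the receptors, 15.5, at 4.73 FPKM in control replicate 3. Htr2c, the serotonin receptor of the plexus that neurons also carry, had 9.29 FPKM there, above the 3.78 to 5.77 FPKM of the others. Among the factors, Msx1 was at 10.7 FPKM in control replicate 3 and 1.00 to 2.08 FPKM elsewhere, and Zic1 had a ratio of 1.04.

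Markers of neighbouring tissues were set beside the plexus genes. Ependymal and motile cilium genes had a median ratio of 2.18 in control replicate 3, with 8 of 16 at 2 or more and 0 at 10 or more. They summed to 14.5 to 19.5 FPKM after Cre and to 33.8, 15.6 and 43.6 FPKM in control replicates 1 to 3, and none was at 0. Rsph1, a radial spoke protein, reached 9.68 FPKM in control replicate 3, then 5.75 in control replicate 1, and lay at 1.91 to 2.62 FPKM in the other 4. Of the 16, 15 were lower after Cre with 0 called, as over all tested genes. Their median log2 fold change went from -0.86 to -0.43 without control replicate 3. With all libraries, 5 were lower with an unadjusted p under 0.05 in edgeR and 2 were lower without overlap, against 3.16% and 7.5% of all tested genes. The stroma and fenestrated vessels of the plexus had a median ratio of 2.47, with Col8a1 at 24.9 and Plvap, the marker of fenestrated endothelium, at 1.39. The part of ependymal and stromal RNA in the plexus result was not tested.

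Meningeal genes had a median ratio of 2.03. Their sum was highest in knockdown replicate 2 (759 FPKM), with 514 FPKM in control replicate 3 and 153 to 330 FPKM in the other 4. Most of it was Ptgds, at 709.5 FPKM in knockdown replicate 2 and 466 FPKM in control replicate 3. Slc6a13, Foxc1, Foxd1 and Gjb6 were also highest in knockdown replicate 2. Aldh1a2, Slc22a6, Crabp2, Slc13a3, Gjb2 and Alx4 were highest in control replicate 3. Genes of brain endothelium had a median ratio of 1.24, of thalamus and habenula 1.07 and of hippocampal principal neurons 1.10. For pigment epithelium and pineal genes the median ratio was 1.204 and the sum was 8.49 FPKM in control replicate 3, within the 5.88 to 8.70 FPKM of the others. Rpe65, the retinoid isomerase that defines the pigment epithelium, was at 0 in control replicate 3, knockdown replicate 2 and control replicate 1. It had at most 0.192 FPKM elsewhere. Tyr was at 0.00893 FPKM in control replicate 3 and at most 0.0239 FPKM elsewhere. Other genes of this list were highest in control replicate 3, with Mitf at 2.05 FPKM (at most 1.38 elsewhere). Pmel was at 0.552 FPKM (at most 0.283) and Dct at 0.159 FPKM (at most 0.0539). The liver also makes Ttr, and of liver genes Alb and Apoa1 were at 0 in control replicate 3 and at most 0.185 FPKM elsewhere. Serpina1a (0.597 FPKM) and Apoa2 (0.393 FPKM) were highest in control replicate 3, against at most 0.376 and 0.311 FPKM elsewhere. The median ratio was 1.52 over the 3 liver genes that passed the level filter.

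**Figure D5:**
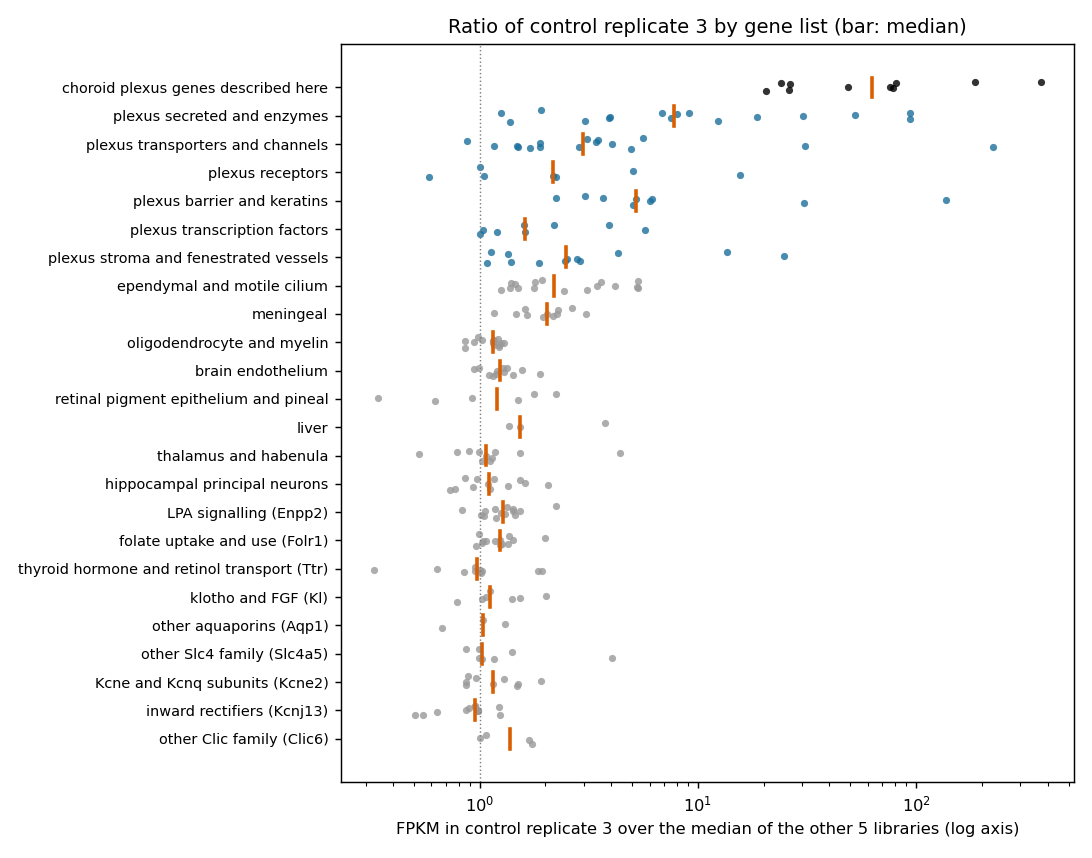
Ratio of FPKM in control replicate 3 to the median of the other 5 libraries, on a log axis, for genes of each list (1 point per gene, bar at the median, plexus lists in blue). The 10 genes described here lie between 20.4 and 374, plexus epithelial lists have medians of 1.61 to 7.75, and the lists of other tissues and cell types, apart from ependyma, meninges and plexus stroma, have medians of 1.07 to 1.52.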

How the data were processed

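The authors deposited whole-number estimated counts and FPKM values (per gene length and library, per the file headers) for 33385 genes. GRCm39, HISAT2 2.2.1, StringTie 2.1.6 and cutadapt 1.9 are named in the submitters' processing notes. The sources used here state neither the annotation release nor the counting and strand settings. Counts of single genes pile up at multiples of 4, so the number of read pairs behind a count is unknown.

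Here edgeR 4.0.16 (R 4.3.3; filterByExpr, TMM, quasi-likelihood F test, Benjamini-Hochberg over 20946 genes at 0.05) was run on all 6 libraries with group as the term. The common biological coefficient of variation was 28.6%. SEs come from the F statistic, and negative values mean lower after Cre. The pipeline was tested on simulated data. DESeq2 1.42.0 and limma 3.58.1 were alternatives. Ratios and permutation tests used FPKM. After the mean of its group was subtracted from each gene's log level, the remaining deviations of same-numbered libraries correlated at -0.0117, -0.0523 and -0.0994. Replicate numbers were therefore not taken to pair the libraries.

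Members and gene lists were chosen with earlier results of these data known. Named genes were the 10 members, the 15 nearest profiles and, per list, the smallest p and extreme ratios. A few others that define a tissue, overlap a member or illustrate a list were chosen after their values were seen. Of the listed names, 9 were not found in the table. Promoters are RefSeq's (GRCm38.p6), matched by symbol.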

Additional observations from a re-analysis of the deposited data

How the results depend on the processing

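No gene of the 10 was called at an adjusted p under 0.05 under any of 14 alternatives that gave the count. The directions of Ttr, Enpp2, Slc4a5, Aqp1 and Otx2 were negative under every alternative run. Without control replicate 3, Clic6 went to 0.45, Folr1 to 0.28, Kcne2 to 0.17, Kcnj13 to 0.14 and Kl to 0.08, where leaving out other libraries had given values down to -3.87, -5.14, -5.38, -4.9 and -3.34 in the same order. Control replicates 2 and 3, the Y-linked pair, were also left out together, so control replicate 1 was the only control. Folr1 then went to 0.09 and Kcnj13 to 1.27. The cause was not tested.

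The median log2 fold change was -1.96 with a replicate block, -0.26 in the 4 libraries without Y-linked counts, -1.26 by limma on log2(FPKM + 1) with or without the filter and -2.03 with a pseudocount of 0.1. It was -4.89 to -0.11 when single libraries were left out. The count of genes with an unadjusted p under 0.05 was 0 with the replicate block and under each of the 3 limma fits. When single libraries were left out, that count was 1 to 10. Genes lower without overlap numbered 2 to 5 over the libraries left out, a count that cannot fall when a library is left out. For most of these settings no share over all genes was computed, so the counts are values only. The median ratio was 29.2 against the highest of the other 5 libraries. Above a fixed ratio were 5 genes with Folr1 and 2 with Kcnj13 as the reference. DESeq2 gave no adjusted p for 9 of the 10, and its 1 value, for Otx2, was 0.436. Dividing counts by 4 removed Aqp1, Kcne2 and Slc4a5 through the filter. Slc4a5 went to -13.3 without knockdown replicate 2, where its group is at 0, so that value is no bound. Low counts, 5 to 110 for Kcnj13 for example, limit the levels outside control replicate 3.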
